A study of Mus musculus with 30 samples.

Results

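The bone morphogenetic protein (BMP) genes described here are 10 of the 46078 genes counted in colon epithelium scraped from C57BL/6J mice. They were taken by gene symbol from the gene counts: the ligands Bmp2, Bmp4, Bmp5 and Bmp7, the secreted antagonists Grem1 and Nog, and the targets Id1, Id2, Id3 and Smad6. The study set out to find how the colon transcriptome of each sex responds to azoxymethane and dextran sulfate sodium (AOM/DSS), a carcinogen followed by a gut irritant that together give colitis and then tumors. Wild-type mice aged 5 to 10 weeks at the start received 1 injection of AOM at 10 mg/kg and 3 cycles of 2.5% DSS in drinking water, and were killed 9 or 15 weeks after the injection. The vehicle was a saline injection, and those mice were sampled at week 9 alone. Any contrast of 15 weeks with vehicle therefore mixes treatment with time and age. There were 5 females and 5 males in each of these 3 conditions, with 1 library per mouse and 30 in all. The sample was the scraped epithelial layer of colon, separated from the lamina propria, and the stretch of colon that each scrape covered is not given in the sources used here. On GRCm38 the ligand genes lie at chr2:133552159-133562885 (Bmp2), chr14:46383520-46390669 (Bmp4), chr9:75775364-75900310 (Bmp5) and chr2:172868012-172940321 (Bmp7). The antagonist genes lie at chr2:113746164-113758646 (Grem1) and chr11:89300638-89302332 (Nog), and the target genes at chr2:152736251-152737410 (Id1), chr12:25093801-25096092 (Id2), chr4:136143497-136145755 (Id3) and chr9:63953076-64022059 (Smad6).

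BMPs are secreted ligands that bind paired receptors and activate Smad proteins, which then switch on target genes. In the intestine BMP signaling is known to be strongest toward the crypt mouth, where it restrains proliferation, while antagonists such as Gremlin-1 and Noggin shield the stem cells at the crypt base. The Id genes encode inhibitors of DNA binding that are direct BMP targets, and Smad6 encodes an inhibitory Smad induced by the pathway as feedback. Connective tissue cells beneath the epithelium are known sources of Bmp4, Bmp5 and Grem1.

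Start-site sequences are shown for Bmp4, Bmp5 and Grem1, whose levels moved together across libraries, and for Smad6, the feedback gene. Each runs 5′ to 3′ over the 240 bases from 250 to 11 before the RefSeq start (GRCm38.p6). Capitals mark GTCT, a short Smad-binding word searched on both strands (AGAC on the other), and the palindrome GGCGCC, a word bound by BMP-activated Smads. The positions are chr14:46390680-46390919 on the minus strand for Bmp4, chr9:75775115-75775354 on the plus strand for Bmp5, chr2:113758659-113758898 on the minus strand for Grem1 and chr9:64022070-64022309 on the minus strand for Smad6.
Bmp4: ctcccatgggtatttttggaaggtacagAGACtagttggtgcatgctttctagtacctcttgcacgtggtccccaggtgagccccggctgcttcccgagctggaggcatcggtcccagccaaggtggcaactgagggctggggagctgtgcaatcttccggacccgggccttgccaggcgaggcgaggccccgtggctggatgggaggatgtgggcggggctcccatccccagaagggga
Bmp5: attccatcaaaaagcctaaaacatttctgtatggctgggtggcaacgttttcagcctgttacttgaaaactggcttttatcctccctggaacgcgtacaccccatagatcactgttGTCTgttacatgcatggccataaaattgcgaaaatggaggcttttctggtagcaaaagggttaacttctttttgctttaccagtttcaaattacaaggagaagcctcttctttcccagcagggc
Grem1: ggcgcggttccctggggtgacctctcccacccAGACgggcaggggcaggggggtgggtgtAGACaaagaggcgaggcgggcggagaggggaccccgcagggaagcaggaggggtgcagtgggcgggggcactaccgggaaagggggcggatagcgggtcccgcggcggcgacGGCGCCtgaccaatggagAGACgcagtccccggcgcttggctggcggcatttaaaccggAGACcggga
Smad6: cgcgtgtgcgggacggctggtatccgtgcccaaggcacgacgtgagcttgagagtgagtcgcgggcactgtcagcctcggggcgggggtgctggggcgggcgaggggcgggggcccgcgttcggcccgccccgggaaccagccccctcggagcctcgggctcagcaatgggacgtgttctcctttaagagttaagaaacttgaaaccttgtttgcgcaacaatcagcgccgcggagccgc
The windows differed in base content. GC made up 63.8% of the Bmp4 window, 42.9% of Bmp5, 72.1% of Grem1 and 67.9% of Smad6, against a median of 52.1% over all 32851 windows. Grem1 held 4 copies of GTCT and 1 of GGCGCC. Bmp4 and Bmp5 held 1 copy of GTCT each and no GGCGCC, and Smad6 held neither word. GTCT was present in 81.8% of all windows and GGCGCC in 9.08%, so GTCT in a window is the usual case. The RefSeq table held 6 of the 10 genes, and the Id2 and Id3 windows are not printed.

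Levels are given in CPM, counts scaled to library size with TMM factors, and compared between genes in TPM, which also corrects for transcript length. Total counts ran from 9265804 to 30806392 per library. Mice were separate animals, so the spread between libraries includes that between animals. By their marker scores 3 libraries stood apart from their groups: male vehicle replicate 1, high in smooth muscle genes, female vehicle replicate 1, high in fibroblast genes, and female 9-week replicate 5, low in fibroblast genes. The test could be run on 9 of the 10 genes, as Nog was too low. Id1 and Id3 stood highest in TPM. Their ranges overlapped between libraries, and within every library Id1 was above Id3. In vehicle mice the median over 10 libraries was 39.6 TPM for Id1, 15.9 for Id3, 7.56 for Id2 and 1.38 for Smad6. Among ligands it was 8.50 TPM for Bmp2, 0.714 for Bmp4, 0.691 for Bmp7 and 0.472 for Bmp5, and Grem1 had 0.131. The ranges of Bmp4, Bmp5 and Bmp7 overlapped between libraries. Within every vehicle library Bmp4 was above Bmp5, while Bmp7 was above Bmp4 in some and below it in others. Mitochondrial genes took 51.8 to 76.3% of the TPM of a library, with medians of 56.3% and 53.8% in females and males at 9 weeks and 62.9% and 66.1% at 15 weeks, so the levels given in TPM compare genes and not conditions.

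**Figure D1:**
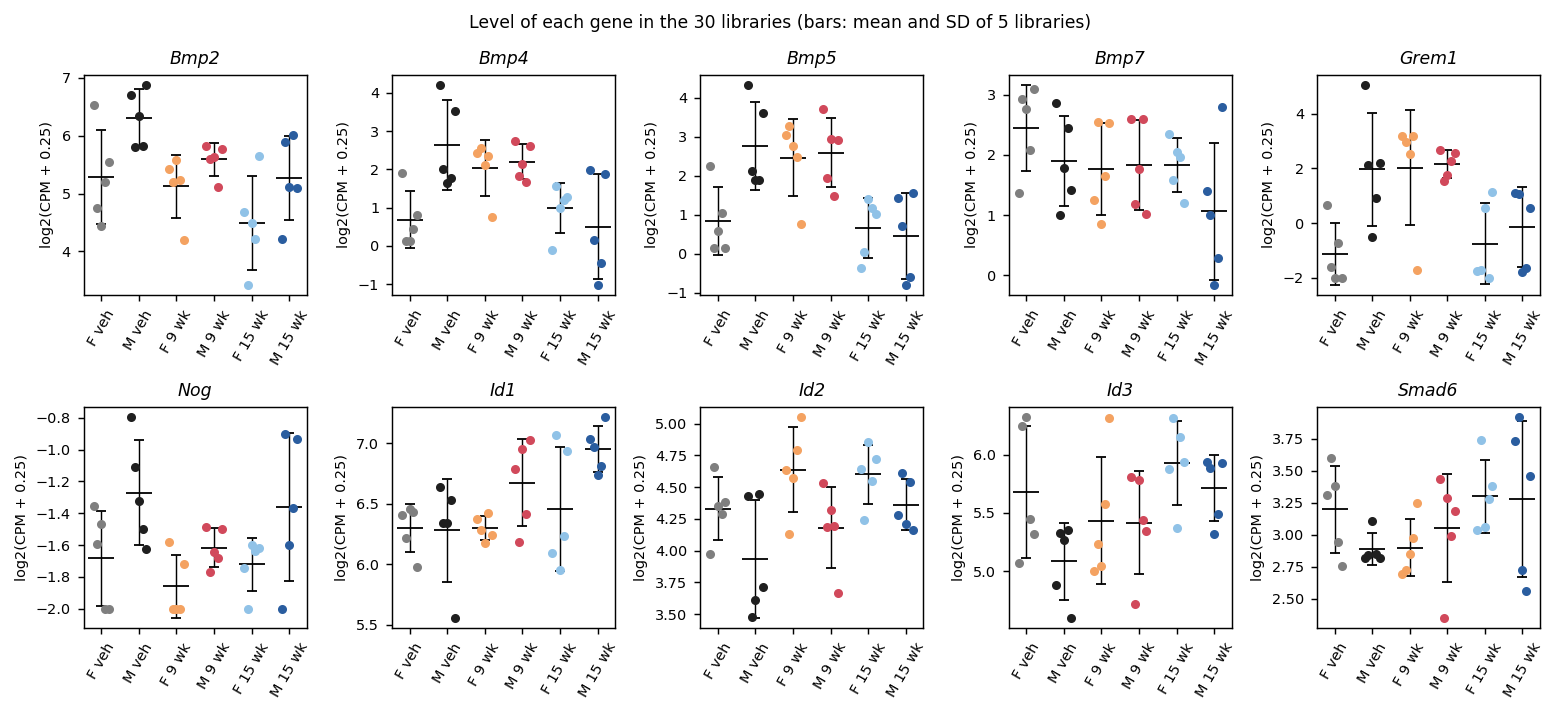
Level of each gene as log2(CPM + 0.25) in the 30 libraries, with 1 point per library and the mean and SD of each group of 5 (F, females; M, males; veh, vehicle). Bmp4, Bmp5 and Grem1 share a pattern with low female vehicle mice and low levels at 15 weeks, while Id1 is highest in males at 15 weeks.

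Among the 4 ligands Bmp2, Bmp4, Bmp5 and Bmp7, Bmp2 supplied most of the RNA in every library. Bmp3, a ligand gene outside this set, is not counted in the shares. In vehicle mice Bmp3 had a median of 6.46 TPM, against 8.50 for Bmp2, with ranges that overlapped. The share of Bmp2 in the summed TPM of the 4 ligands had a median of 81.5% in vehicle females and 80.1% in vehicle males, 70.2% and 74.0% at 9 weeks, and 72.0% and 93.3% at 15 weeks. The lowest share in any library was 54.7%, in a female at 15 weeks, and the highest was 97.5%, in a male at 15 weeks. The male libraries at 15 weeks had the widest range, from 63.1 to 97.5%. Bmp7 held a median of 13.4% in vehicle females and 3.36% in vehicle males, with ranges that overlapped. Among the Id genes, Id1 held the largest share, with group medians from 52.4 to 67.5%.

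**Figure D2:**
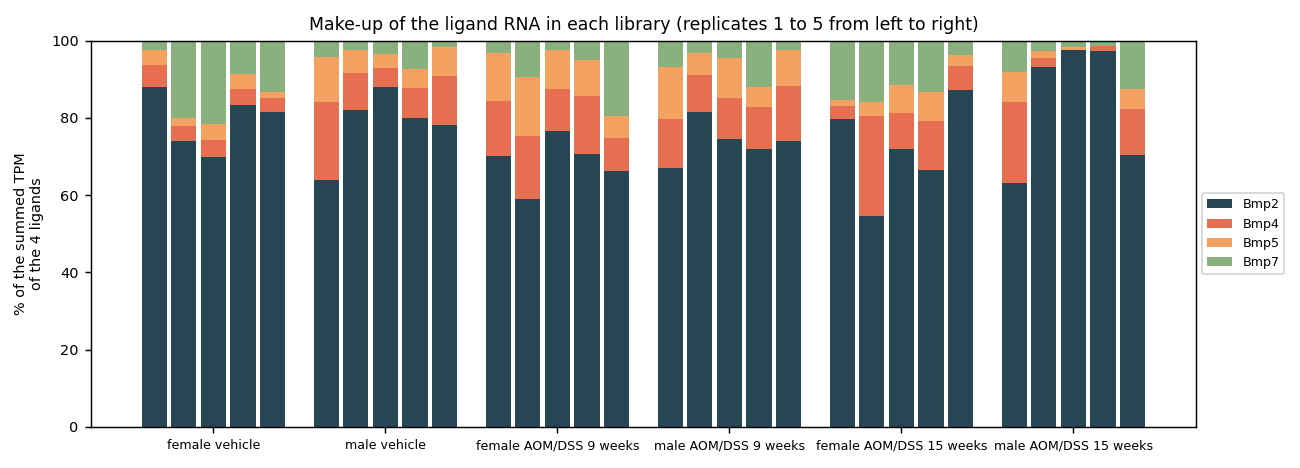
Share of each ligand in the summed TPM of Bmp2, Bmp4, Bmp5 and Bmp7, with 1 bar per library and replicates 1 to 5 from left to right in each group. Bmp2 is the largest part of every bar, from 54.7 to 97.5%.

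Calls required 3 things of a gene: an adjusted p from edgeR's quasi-likelihood test below 0.05, a log2 fold change larger than 0.4 in either direction, and a mean FPKM of at least 1 in a compared group. At 9 weeks against vehicle, with the sexes averaged, none of the 9 genes tested was called in edgeR or DESeq2. Of all genes edgeR called 8.51% of the 16261 tested and DESeq2 7.48% of 19771. Bmp2 came nearest to the threshold at -0.53 (SE 0.268, adjusted p = 0.187). At 15 weeks against vehicle 3 of the 9 were called, against 7.79% of all genes: Id1 was higher (3.54% of all genes were higher) and Bmp2 and Bmp5 were lower (4.25%). Between 15 and 9 weeks edgeR called 1 gene, Bmp5, which was lower, against 2.42% of all genes in either direction. The 15-week changes against vehicle and against 9 weeks share the 15-week libraries, and both comparisons with vehicle share the vehicle libraries. The median log2 fold change of the 9 genes was 0.19 at 9 weeks, -0.69 at 15 weeks and -0.30 between the times, where all genes had medians of -0.02, -0.03 and -0.02. At 15 weeks against vehicle the ligands and Grem1 were all negative, from -1.44 (Bmp5) to -0.69 (Bmp7). The targets were all positive, from 0.29 (Smad6) to 0.43 (Id1), so the median is not a shift shared by the 9 genes. Between the times the signs split in the same way. Without the 3 libraries that stood apart, an alternative chosen after seeing the data, the values at 15 weeks against vehicle were -0.83 for Bmp5 (adjusted p = 0.162), -0.63 for Bmp2 (adjusted p = 0.0915) and 0.49 for Id1 (adjusted p = 0.0411), and Bmp5 between the times was -2.24 (adjusted p = 0.000748). Grem1 at 9 weeks against vehicle was then 3.35 (adjusted p = 0.00174) and Bmp5 was 1.41 (adjusted p = 0.0119), both past the thresholds. In that fit 11.7% of all genes were called. With all libraries the values were 1.49 and 0.67. The libraries were picked by fibroblast and smooth muscle scores, with which both genes rose. Vehicle libraries with high scores and a 9-week library with a low score were left out, so the choice itself raises both changes.

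**Figure D3:**
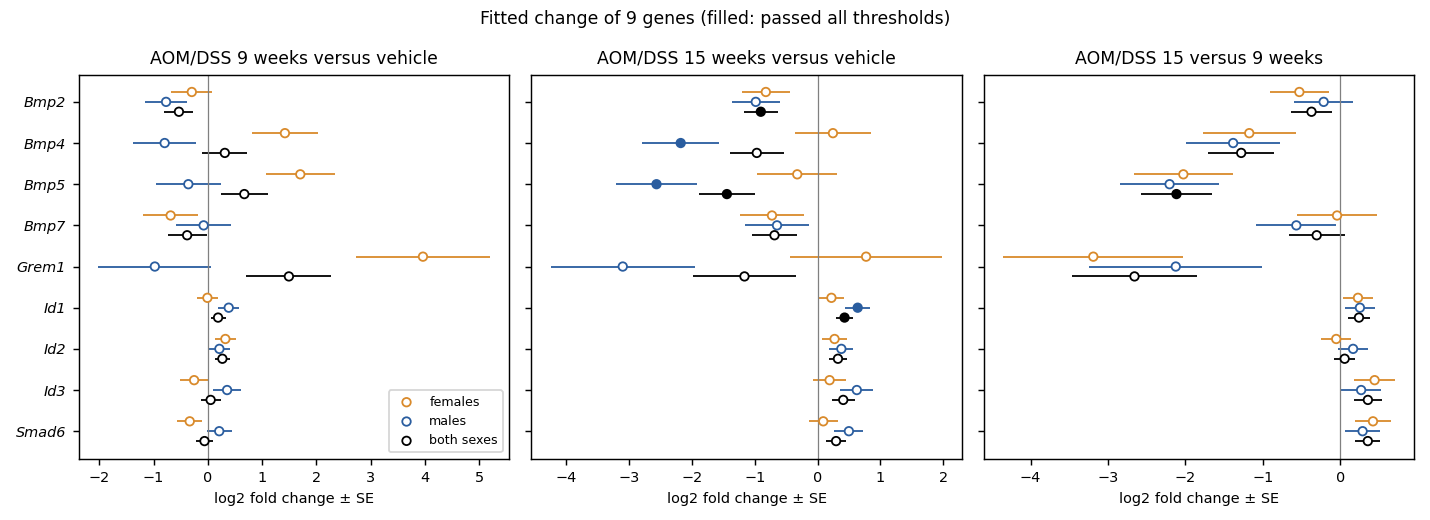
Log2 fold change with its standard error for 9 genes in females, males and both sexes, for 9 weeks against vehicle, 15 weeks against vehicle and 15 against 9 weeks. Filled points passed all thresholds: Bmp2, Bmp5 and Id1 at 15 weeks with the sexes averaged, Bmp4, Bmp5 and Id1 in males at 15 weeks, and Bmp5 between the times with the sexes averaged.

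Bmp5, a ligand made by connective tissue cells, was lower at 15 weeks than at 9 weeks and than in vehicle mice. In vehicle mice it was at 4.51, 0.852, 1.26, 1.81 and 0.853 CPM in the 5 females and 20.1, 4.11, 3.44, 3.49 and 12 in the 5 males. At 9 weeks it was at 8.08, 9.43, 6.53, 5.36 and 1.45 CPM in females and 12.8, 3.58, 7.40, 2.55 and 7.29 in males. At 15 weeks it was at 0.527, 0.788, 2.41, 1.997 and 1.78 CPM in females and 2.43, 1.39, 0.322, 0.413 and 2.67 in males. Vehicle males lay above all males at 15 weeks, while females at 15 weeks overlapped vehicle females. Against vehicle the log2 fold change at 15 weeks was -1.44 (SE 0.45, adjusted p = 0.0289), and against 9 weeks it was -2.12 (SE 0.454, adjusted p = 0.0143). At 9 weeks against vehicle it was 0.67 (SE 0.433, adjusted p = 0.318). The call between the times held without each library in turn, with values from -2.28 to -1.93. The call at 15 weeks against vehicle was lost without female vehicle replicate 1 (-1.12, adjusted p = 0.0874), male vehicle replicate 1 (-1.15, adjusted p = 0.0787), male vehicle replicate 5 (-1.37, adjusted p = 0.0509) or female 15-week replicate 2 (-1.34, adjusted p = 0.0559).

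Bmp4 tracked Bmp5. In vehicle mice it was at 3.52, 0.852, 0.851, 1.10 and 1.49 CPM in females and 18.3, 3.77, 2.88, 3.14 and 11.3 in males. At 9 weeks it was at 5.16, 5.6, 4.04, 4.81 and 1.45 CPM in females and 6.42, 3.32, 4.17, 2.95 and 5.90 in males. At 15 weeks it was at 0.671, 2.73, 1.73, 2.03 and 2.16 CPM in females and 3.68, 0.857, 0.241, 0.482 and 3.42 in males. Males at 15 weeks spanned values both below and within the vehicle male range. With the sexes averaged edgeR did not call Bmp4: its log2 fold change was 0.31 (SE 0.417, adjusted p = 0.676) at 9 weeks, -0.97 (SE 0.429, adjusted p = 0.111) at 15 weeks and -1.28 (SE 0.426, adjusted p = 0.0735) between the times. DESeq2 called Bmp4 between the times, at -1.27 (adjusted p = 0.033). The annotation places the genes Gm15217 and Gm15222 on the strand opposite Bmp4, and Gm26903 opposite and Gm47723 along Bmp5. The libraries were made with a stranded kit, and whether strand was used in counting is not given in the sources used here.

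Grem1, which encodes the antagonist Gremlin-1, had the widest range of the 9 genes on the log2 scale. In vehicle mice it was at 1.34, 0.0811, 0, 0.353 and 0 CPM in females and 33.1, 4.15, 0.449, 1.62 and 4.37 in males. At 9 weeks it was at 8.71, 7.58, 5.48, 8.85 and 0.0537 CPM in females and 6.17, 2.62, 3.16, 4.61 and 5.66 in males. At 15 weeks it was at 0.0479, 0.0525, 1.20, 0 and 1.97 CPM in females and 1.90, 1.84, 0.0403, 0.0689 and 1.20 in males. Every male at 15 weeks lay below every male at 9 weeks. In edgeR the log2 fold change between the times, -2.66 (SE 0.805, adjusted p = 0.0517), missed the threshold, as did 1.49 (SE 0.783, adjusted p = 0.208) at 9 weeks and -1.16 (SE 0.823, adjusted p = 0.324) at 15 weeks. Grem1 was called between the times by DESeq2 (-2.67, adjusted p = 0.0389) and by edgeR on the compared libraries only (-2.66, adjusted p = 0.0376). Of the 30 libraries, 9 held 3 counts or fewer of Grem1, so its low values carry large counting error. Nog, which encodes the antagonist Noggin, had 0 to 10 counts per library and at most 0.325 CPM, and no fold is given for it.

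Bmp2, known from the upper crypt epithelium, was lower at 15 weeks than in vehicle mice. In vehicle mice it was at 92.5, 26.8, 21.4, 36.5 and 46.5 CPM in females and 104, 55.6, 81.0, 56.2 and 118 in males. At 9 weeks it was at 42.6, 36.3, 47.8, 37.3 and 18.1 CPM in females and 56.3, 48.4, 49.5, 34.3 and 54.7 in males. At 15 weeks it was at 25.3, 10.4, 22.1, 18.3 and 50.1 CPM in females and 18.3, 59.0, 34.4, 64.3 and 33.8 in males. Both sexes overlapped between the conditions. The log2 fold change was -0.90 (SE 0.27, adjusted p = 0.0243) at 15 weeks, and without female vehicle replicate 1 it was -0.67 (adjusted p = 0.0694). Bmp7, a further ligand, ranged from 1.76 to 8.32 CPM in vehicle mice, 1.55 to 5.81 at 9 weeks and 0.644 to 6.64 at 15 weeks. Its log2 fold change at 15 weeks against vehicle was -0.69 (SE 0.364, adjusted p = 0.182).

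Id1 was higher at 15 weeks. In vehicle mice it was at 84.4, 74.1, 87.3, 86.1 and 62.9 CPM in females and 99.1, 80.9, 80.6, 92.0 and 46.8 in males. At 9 weeks it was at 82.4, 77.8, 72.0, 85.5 and 75.4 CPM in females and 110, 72.4, 123, 85.2 and 130 in males. At 15 weeks it was at 68.0, 134, 61.7, 75.0 and 122.2 CPM in females and 131, 125, 106, 112 and 148 in males. Every male at 15 weeks lay above every vehicle male, while females overlapped. The log2 fold change with the sexes averaged was 0.43 (SE 0.139, adjusted p = 0.0337), just past the minimum of 0.4. The call was lost without female vehicle replicate 5 (0.39), male vehicle replicate 5 (0.36), or replicates 2 (0.36) or 5 (0.37) of the females or 5 (0.41) of the males at 15 weeks, with adjusted p from 0.0589 to 0.068.

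The other targets were not called. Id2 ranged from 10.9 to 25.1 CPM in vehicle mice and from 17.6 to 28.7 at 15 weeks, with a log2 fold change of 0.33 (SE 0.136, adjusted p = 0.093). Id3 ranged from 24.0 to 79.6 CPM in vehicle mice and from 39.8 to 79.2 at 15 weeks, with 0.41 (SE 0.185, adjusted p = 0.117). Smad6 ranged from 6.50 to 11.9 CPM in vehicle mice and from 5.65 to 14.9 at 15 weeks, with 0.29 (SE 0.162, adjusted p = 0.199). At 9 weeks against vehicle the 4 targets had log2 fold changes from -0.06 for Smad6 to 0.27 for Id2.

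In males alone, 15 weeks against vehicle called 3 of the 9 genes, against 8.92% of all genes. Id1 was higher at 0.64 (SE 0.197, adjusted p = 0.0305), where 4.37% of all genes were higher. Bmp4 at -2.18 (SE 0.615, adjusted p = 0.0199) and Bmp5 at -2.56 (SE 0.651, adjusted p = 0.0114) were lower, where 4.55% were. The 5 males of each condition did not overlap for Id1 and Bmp5, as for 7.09% of all genes, and between 15 and 9 weeks for Grem1, as for 3.36%. In females none of the 9 was called at 15 weeks, in edgeR (0.0984% of all genes) or DESeq2 (0.556%). The edgeR values were 0.22 for Id1 (SE 0.197), 0.25 for Bmp4 (SE 0.61) and -0.32 for Bmp5 (SE 0.634). At 9 weeks edgeR called none of the 9 in females (2.90% of all genes) or males (7.31%). Grem1 in females at 9 weeks had 3.96 (SE 1.229, adjusted p = 0.065), with 4 of the 5 females above every vehicle female and the other among them. DESeq2 called it, at 4.08 (adjusted p = 0.0272). Without female vehicle replicate 1 edgeR called Grem1 (5.63, adjusted p = 0.0222) and Bmp5 (2.35, adjusted p = 0.034) there. In males at 9 weeks the log2 fold change of Grem1 was -0.98 (SE 1.043, adjusted p = 0.604). Between the times edgeR called no gene of the whole table in either sex (0%), with 2046 genes in females and 2179 in males at an unadjusted p under 0.05, while DESeq2 called 39 and 100 genes, of them none of the 9 in females and 1 in males. In edgeR Bmp5 had -2.03 (SE 0.639, adjusted p = 0.299) in females and -2.20 (SE 0.644, adjusted p = 0.165) in males.

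The difference between the sexes in these changes was tested directly and edgeR called none of the 9 genes and no gene at all (0%). DESeq2 called 0, 1 and 1 genes in the 3 tests of this kind, none of them among the 9. For 15 weeks against vehicle the male minus female change was -2.24 for Bmp5 (SE 0.896, adjusted p = 0.541), -2.42 for Bmp4 (SE 0.861, adjusted p = 0.488) and 0.42 for Id1 (SE 0.278, adjusted p = 0.78). An unadjusted p under 0.05 was reached by 1205 genes for the change at 9 weeks, 1245 at 15 weeks and 363 between the times. Between vehicle males and females edgeR called none of the 9 (0.178% of all genes), with log2 differences of 2.33 for Bmp4 (SE 0.62, adjusted p = 0.0675), 2.19 for Bmp5 (SE 0.638, adjusted p = 0.075) and 4.47 for Grem1 (SE 1.248, adjusted p = 0.0701). DESeq2 called all 3 of these, with adjusted p of 0.00938 for Bmp4, 0.0162 for Bmp5 and 0.0175 for Grem1. It called 2.53% of all genes there. No member was called between the sexes at 9 weeks (0.0492%) or 15 weeks (0.184%).

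Fibroblast marker genes moved with Bmp4, Bmp5 and Grem1, as did marker genes of smooth muscle and endothelium. In bulk samples, fewer cells of a type and less RNA per cell cannot be told apart. The fibroblast list (10 genes, all tested, among them Col1a1, Col3a1, Dcn and Pdgfra) had summed levels of 24.8 to 201 CPM in vehicle females and 102 to 1250 in vehicle males, 43.9 to 286 and 131 to 342 at 9 weeks, and 23.2 to 88.2 and 12.9 to 157.8 at 15 weeks. Across the 30 libraries Pearson's r of log2 CPM with the mean of that list was 0.95 for Bmp4, 0.96 for Bmp5 and 0.89 for Grem1, and Spearman's rho was 0.96, 0.96 and 0.86. Without the 2 libraries farthest from the median it was 0.93, 0.95 and 0.89, and within groups 0.92, 0.93 and 0.85. Over the 30 libraries r with a list of endothelium genes was 0.87 for Bmp4, 0.94 for Bmp5 and 0.87 for Grem1. With a list of smooth muscle genes it was 0.81, 0.82 and 0.80. Bmp4 and Bmp5 had r of 0.93 with each other. These points share library composition and groups, and the values are descriptive. The genes most like Bmp4 were Col6a2, Col6a1 and Col1a2 (r of 0.97, 0.97 and 0.96), those most like Bmp5 were F2r, Col3a1 and Fstl1 (0.98, 0.97 and 0.95), and those most like Grem1 were Pcdh7, Igfbp5 and Rgs5 (0.95, 0.94 and 0.94). Within groups these r were 0.95, 0.95 and 0.94 for Bmp4, 0.97, 0.94 and 0.92 for Bmp5, and 0.89, 0.89 and 0.90 for Grem1. Col1a2, Col3a1 and Col6a1, collagen genes, are themselves in the fibroblast list.

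With the fibroblast score of each library as a covariate, Bmp5 had a log2 fold change of -0.29 at 15 weeks against vehicle (adjusted p = 0.331) and -0.66 between the times (adjusted p = 0.32), and Bmp4 had -0.04 between the times (adjusted p = 0.95). With the smooth muscle score in its place, Bmp5 had -0.48 (adjusted p = 0.381) and -1.25 (adjusted p = 0.128). Grem1 under the fibroblast covariate was 1.68 higher at 9 weeks on the log2 scale (adjusted p = 0.0214). Id1 at 15 weeks was 0.53 (adjusted p = 0.0247). The smooth muscle list (10 genes, all tested) ran from 14.5 to 68.9 CPM summed in vehicle females and from 54.2 to 6277 in vehicle males. Male vehicle replicate 1 held the highest of these and also the highest Bmp4, Bmp5 and Grem1. Without it Bmp5 in males at 15 weeks was -1.98 (adjusted p = 0.0619) and Bmp4 was -1.60 (adjusted p = 0.105). Without it Grem1 at 9 weeks with the sexes averaged was 2.36 (adjusted p = 0.0354). Male Id1 at 15 weeks lost its call without male vehicle replicate 5 (0.50, adjusted p = 0.0941) or 15-week replicates 1 (0.64, adjusted p = 0.0565) or 5 (0.59, adjusted p = 0.0728).

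The other marker lists were measured in the same way. The epithelium list (8 genes, all tested) summed to between 8130 and 26400 CPM in every library, above every other list in every library. The endothelium list (6 genes) had group medians of 9.38 CPM in vehicle females and 42.6 in vehicle males, 32.5 and 30.7 at 9 weeks, and 8.35 and 14.4 at 15 weeks, and Bmp5 had r of 0.94 with it. The leukocyte list (6 genes) had medians of 42.6 and 77.4 CPM in vehicle females and males, 146.2 and 168.8 at 9 weeks, and 67.1 and 67.9 at 15 weeks. Of the 6 genes for enteric neurons and glia 3 were tested, with group medians from 1.49 to 3.8 CPM. The proximal colon list (Hoxb6 to Hoxb9) had medians of 226 and 90.8 CPM in vehicle females and males, 75.9 and 70.3 at 9 weeks, and 222 and 88.3 at 15 weeks. The part of these cells in the changes of the BMP genes was not tested beyond the covariate fits given here.

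Bmp2 and Id3 moved with several marker lists, most closely with the genes that mark distal colon. The distal list (Hoxa13, Hoxb13, Hoxd12 and Hoxd13, posterior patterning genes) had group medians of 3.39 in vehicle females, 3.89 in vehicle males, 3.73 and 3.8 at 9 weeks, and 0.46 and 2.87 at 15 weeks, as mean log2 CPM. Over the 30 libraries Bmp2 had r of 0.86 with that score (rho 0.80, 0.84 without 2 libraries, 0.77 within groups). Id3 had r of -0.87 (rho -0.86, -0.85 without 2 libraries, -0.84 within groups). With the epithelium list r was -0.78 for Bmp2 and 0.81 for Id3, with the proximal colon list -0.71 and 0.74, and with the list for enteric neurons and glia 0.77 and -0.67. With the distal score as a covariate, an alternative added after seeing the data, the log2 fold change of Bmp2 at 15 weeks was -0.19 (adjusted p = 0.659) and that of Id1 was 0.41 (adjusted p = 0.172). Bmp2 and Id3 had r of -0.72 with each other and Id3 and Smad6 had 0.75. The genes most like Bmp2 included Mgat4a and Adgra3, with r of 0.95 each (0.91 and 0.90 within groups). For Bmp7 they were Rbms3, Limch1 and H2afy2, at 0.88, 0.87 and 0.83 (0.90, 0.86 and 0.80 within groups). For Id1 they were Lrrc8a, Eif6 and Fam110a, at 0.83, 0.81 and 0.80 (0.73, 0.67 and 0.77 within groups). For Id2 they were Rasa2, Atg5 and Sav1, at 0.72, 0.71 and 0.70 (0.66, 0.57 and 0.66 within groups). For Id3 they were Mpst, Bsg and Taldo1, at 0.88, 0.87 and 0.87 (0.84, 0.81 and 0.81 within groups). For Smad6 they were Oaz1, Tmem115 and Actr1b, at 0.81, 0.79 and 0.79 (0.76, 0.75 and 0.75 within groups).

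**Figure D4:**
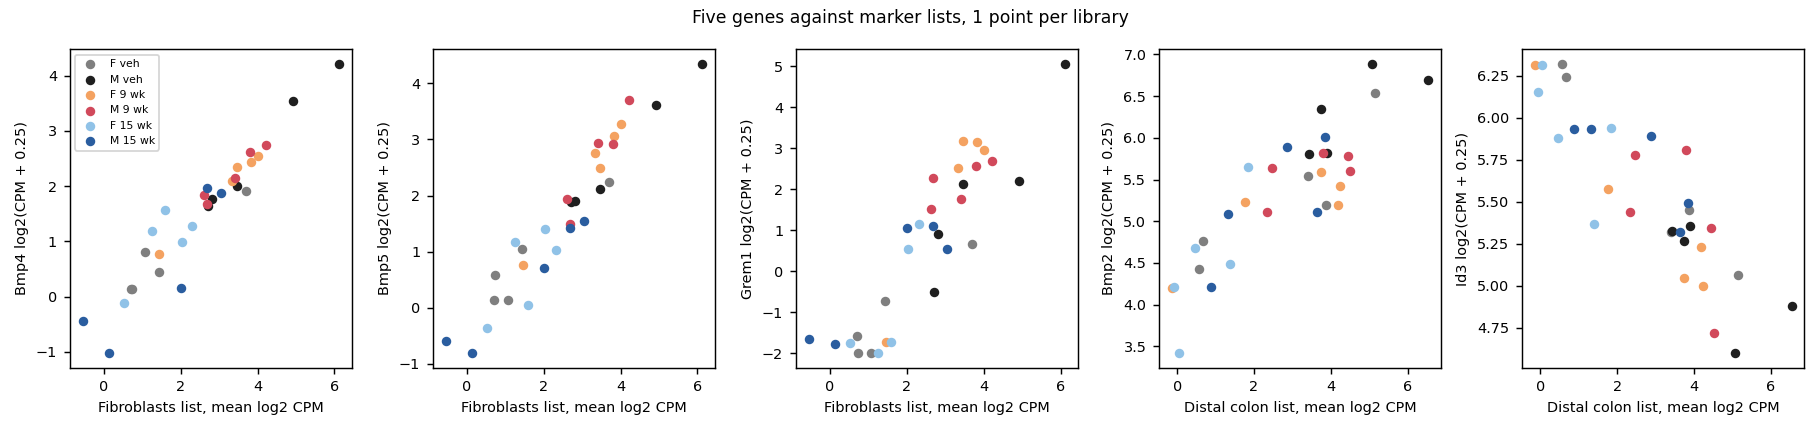
Level of Bmp4, Bmp5 and Grem1 against the fibroblast list, and of Bmp2 and Id3 against the distal colon list, as log2(CPM + 0.25) against mean log2 CPM of the list, with 1 point per library. By the r given in the text, Bmp4, Bmp5 and Grem1 rise with the fibroblast list (r of 0.95, 0.96 and 0.89), Bmp2 rises with the distal list (r of 0.86) and Id3 falls with it (r of -0.87).

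Of 45 further BMP pathway genes, 35 were tested, and edgeR called 6 at 9 weeks (8.51% of all genes), 2 at 15 weeks (7.79%) and 2 between the times (2.42%), with the sexes averaged. DESeq2 called 5, 4 and 3, where it called 7.48%, 7.82% and 3.14% of all genes. At 9 weeks the ligand gene Bmp8b rose by 1.02 on the log2 scale (SE 0.226, adjusted p = 0.00236), from a median of 4.43 CPM to 9.95. Skil, a repressor of Smads, rose by 0.83 (SE 0.186, adjusted p = 0.00249), from a median of 66.5 CPM to 139.2. Bmp3, an antagonistic ligand, fell by 1.42 (SE 0.354, adjusted p = 0.00603) from a median of 65.1 CPM to 23.9. The secreted antagonist gene Nbl1 fell by 1.22 (SE 0.285, adjusted p = 0.00338), the decoy receptor gene Bambi by 0.74 (SE 0.227, adjusted p = 0.0242) and the co-receptor gene Rgmb by 0.41 (SE 0.09, adjusted p = 0.00232). At 15 weeks Nbl1 fell by 1.17 (SE 0.285, adjusted p = 0.00815). Between 9 and 15 weeks Fstl1 fell by 2.03 (SE 0.601, adjusted p = 0.047) and Skil by 0.64 (SE 0.185, adjusted p = 0.0447). The count between the times ran from 0 to 5 without each library in turn, the highest without female 9-week replicate 5. It was 0 with no filter on low counts or with the fibroblast, smooth muscle or distal score as covariate. The count rose to 7 without the 3 libraries that stood apart (8.87% of all genes) and to 16 in limma on TPM (50.8%). At 15 weeks it ran from 1 to 4 and at 9 weeks from 4 to 6 without each library in turn. None of the 4 receptor-activated and common Smads and none of the 3 further targets tested was called in these comparisons.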

How the data were processed

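RNA from 30 scraped colon epithelia was sequenced from poly(A)-selected stranded libraries. Alignment to GRCm38 by the authors used STAR, and featureCounts gave the gene counts. The deposited gene counts are raw. The FPKM and TPM values were deposited by the authors as StringTie estimates, 1 file per library. Groups were taken from the labels. The members and gene lists were chosen with earlier results of these data known. Counts were filtered with filterByExpr (16261 genes left), scaled by TMM (factors 0.832 to 1.10) and fitted with the quasi-likelihood model of edgeR 4.0.16 in R 4.3.3, with 1 coefficient per group of 5 and Benjamini-Hochberg adjustment over all genes in each of 15 comparisons. The study names DESeq2, so DESeq2 1.42.0 was an alternative. The rule for named genes took all 10 members, called pathway genes and the 3 tested genes most like each member. Correlations used log2 CPM with a prior count of 2. Marker scores are mean log2 CPM of a list. Alternatives were RLE factors, no filter, compared libraries only, no fold or FPKM minimum, a replicate block, marker scores as covariates, limma 3.58.1 on log2(TPM + 0.5) and leaving out libraries. The fit was also run on simulated data with the same dispersion for every gene and no library apart. These data differ in both, so that run does not test the calls given here. Duplicate reads were not removed, and counts are not independent molecules. No library was a copy of another in its group (60 pairs), and pairs across groups were not checked. A few values under the rule for named genes are not reported here.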

Additional observations from a re-analysis of the deposited data

Results flagged for a closer look

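Among 54 groups of 5 libraries checked (9 genes in 6 groups), 5 held a library whose gap to its neighbor was a large part of the range of the group, and chance gives this in about 1 of 20 groups. Female AOM/DSS 9 weeks replicate 5 stood low for 3 genes, with Bmp2 at 18.1 CPM against a group median of 37.3, Bmp4 at 1.45 against 4.81 and Grem1 at 0.0537 against 7.58. Its fibroblast score, the mean log2 CPM of that list, was 1.45 against a median of 3.46. Male vehicle replicate 5 stood low for Id1, at 46.8 CPM against 80.9. Male vehicle replicate 3 stood high for Smad6, at 8.38 CPM against 6.94, within the range of the other groups. By the same rule on the marker scores, male vehicle replicate 1 stood apart for smooth muscle, at 8.70 where its group had a median of 2.87. Female vehicle replicate 1 stood apart for fibroblasts, at 3.70 where the median was 1.07.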

How the results depend on the processing

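Leaving out the 3 libraries that stood apart in a marker score (male vehicle 1, female vehicle 1, female 9 weeks 5) and adjusting for the distal score were chosen after seeing the data. At 9 weeks, with the sexes averaged, 0 members were called, against 1 with the fibroblast, smooth muscle or distal score as covariate, 2 without the 3 libraries and 0 to 1 without each library in turn. Of all genes 9.05%, 9% and 10.1% were called with these scores and 11.7% without the 3 libraries. At 15 weeks against vehicle the 3 calls became 1 with the fibroblast or smooth muscle score or without the 3 libraries, and 0 with the distal score, with the compared libraries only and in limma on TPM, and 1 to 3 without each library. The share of all genes called was 5.35%, 3.81% and 2.56% with the fibroblast, smooth muscle and distal scores. It was 4.88% without the 3 libraries, 5.86% with the compared libraries only and 0.953% in limma. Between the times the 1 call became 0 with any of the 3 scores, 2 with the compared libraries only, 3 in DESeq2, 4 in limma on TPM or without the 3 libraries, and 1 to 4 without each library. Of all genes 2.72% were called with the compared libraries only and 3.14% in DESeq2. The share was 50.8% in limma on TPM and 8.87% without the 3 libraries. In females at 9 weeks 0 became 1 in DESeq2 and with the distal score, 3 without the 3 libraries, and 0 to 2 without each library. Of all genes 3.58% were called in DESeq2, 4.5% with the distal score and 9.76% without the 3 libraries. Between the times in females 0 became 2 without the 3 libraries, where 5.56% of all genes were called. In males at 15 weeks 3 became 1 with the fibroblast or smooth muscle score, 0 with the distal score or the compared libraries only, and 1 to 4 without each library. Of all genes 3.82%, 2.05% and 3.21% were called with the fibroblast, smooth muscle and distal scores and 1.21% with the compared libraries only. Between the times in males 0 became 1 in DESeq2 or without the 3 libraries and 2 in limma on TPM. Of all genes 0.567%, 0.533% and 9.88% were called in these fits. Between vehicle males and females 0 became 3 in DESeq2 or without the 3 libraries, and 0 to 4 without each library. Of all genes 2.53% were called in DESeq2 and 3.27% without the 3 libraries. Without the 3 libraries Grem1 at 9 weeks was 3.35 (adjusted p = 0.00174), against 1.49 with all libraries, a change that the choice of libraries itself raises.

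Replicate numbers did not pair the samples: the mean correlation of deviations was -0.03 over 75 pairs with the same number and 0.007 over 300 others. With a replicate block the calls at 15 weeks became 1, those between the times 2, those in females at 9 weeks 1 and those in males at 15 weeks 2, where Id1 was 0.63 (adjusted p = 0.0555). The shares of all genes called were then 6.01%, 1.7%, 2.78% and 7.04%.

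Directions turned in these cases, and the cause was not tested. At 9 weeks Id3 was -0.07 with the distal score, -0.19 without the 3 libraries and -0.10 to 0.14 without each library, and Smad6 was 0.19 in limma on TPM and -0.12 to 0.01 without each library. The median of all genes moved by 0.233 in limma on TPM at 9 weeks, and relative to it Smad6 was -0.04. At 15 weeks Bmp4 was 0.09 with the fibroblast score, and Grem1 was 1.12, 0.74 and 1.11 with the fibroblast, smooth muscle and distal scores and 0.54 without the 3 libraries. Id3 was -0.05 with the distal score and Smad6 -0.02 in limma on TPM. The median of all genes moved by -0.22 in limma at 15 weeks, and relative to it Smad6 was 0.2. Between the times Bmp2 was 0.07 with the fibroblast and 0.09 with the distal score, and Id2 was -0.01 with the fibroblast score. In limma on TPM Id1 was -0.40, Id2 -0.52, Id3 -0.24 and Smad6 -0.21 between the times, where the median of all genes moved by -0.50, so that relative to it they were 0.10, -0.03, 0.25 and 0.29.

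Calls over all genes between the times numbered 394, against 0, 21 and 7 with the fibroblast, smooth muscle and distal scores, 228 with no filter, 605 in DESeq2, 703 with no FPKM minimum, 8268 in limma on TPM, 1449 without the 3 libraries and 98 to 1217 without each library, the last without female 9 weeks replicate 5. At 15 weeks 1267 (7.79% of those tested) became 0.953% in limma on TPM, 416 with the distal and 619 with the smooth muscle score, 797 without the 3 libraries and 2256 with no fold minimum.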
